A study of Mus musculus with 2 samples.

Results

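The genes that make, sense and answer the active glucocorticoid hormone inside a cell were compared between microvesicles shed by fat cells and the fat cells themselves. The 7 genes were chosen by name: Hsd11b1, Nr3c1, Fkbp5, Tsc22d3, Per1, Sgk1 and Dusp1, out of 28785 gene names on the array. They were measured by 15 of 41174 probes, and every one of these probes was used (Sgk1 stands under its older name, Sgk, in the files). All RNA came from 3T3-L1, an established line of mouse preadipocytes cultured in high-glucose DMEM with 10% FCS and turned into adipocytes with insulin (10 µg/ml), dexamethasone (0.25 µM) and 3-isobutyl-1-methylxanthine (IBMX, 0.5 mM). On day 11 after induction, the adipocyte-derived microvesicles (ADMs) were spun out of the medium by ultracentrifugation, and RNA was taken from them and, on the same day, from the donor adipocytes. There were 2 biological replicates, each with 1 vesicle RNA and 1 cell RNA on a single 2-colour array: vesicle RNA carried Cy5 in replicate 1 and Cy3 in replicate 2. Both RNAs came from cells that had received dexamethasone, itself a synthetic glucocorticoid, and no RNA of cells without it was analysed here. The data therefore compare 2 RNAs from induced cells, and no response to the hormone was measured. The sources used here do not give how long dexamethasone stayed on the cells.

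In fat cells, 11-beta-hydroxysteroid dehydrogenase type 1, the product of Hsd11b1, turns inactive 11-keto glucocorticoids into active hormone, using NADPH that hexose-6-phosphate dehydrogenase (H6pd) supplies inside the endoplasmic reticulum. The active steroid binds the glucocorticoid receptor (Nr3c1), which waits in the cytosol in a complex with heat shock protein 90 and its co-chaperones, then enters the nucleus and acts on glucocorticoid response elements. Among its best-known induced genes are Fkbp5, which feeds back on the receptor complex, Tsc22d3 (also called GILZ), Per1, Sgk1 and Dusp1. In the 3T3-L1 recipe, dexamethasone is the component that engages this receptor, while IBMX raises cyclic AMP.

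Start-site sequences of these genes are shown first, searched for the elements through which the receptor and cyclic AMP are known to act. Few held a full element, and sequence further from a start was not searched. The RefSeq table (assembly GRCm38.p6) held 14 windows for 6 of the 7 genes, each from 250 bases before to 50 bases after an annotated start, and none was printed for Nr3c1. A glucocorticoid response palindrome, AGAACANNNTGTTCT, was in 3 of 32851 windows of the same length (0.00913%), and 1 of them belonged to Sgk1. It began 189 bases before that start. The hexamer AGAACA, which by its letters lies inside the palindrome at both ends, was in 4 of the 14 windows and in 19% of all windows. Those 4 windows were of Sgk1 and Tsc22d3 only. The windows were shared unevenly, and Sgk1 had more of the 14 than any other gene. A cyclic AMP response element, TGACGTCA, was in 1 of the 14 windows, that of Dusp1, 143 bases before the start, and in 1.79% of all. The shorter TGACG overlaps it and was in 5 of the 14 windows and 20.8% of all, and the C/EBP motif TTGCNNAA was in 2 and in 10.8%. Both strands were searched. The 250 bases before the start are printed below for Sgk1 (chr10:21993640-21993889, plus strand), Dusp1 (chr17:26508473-26508722, minus strand) and Hsd11b1 (chr1:193242361-193242610, minus strand), 5′ to 3′ on the gene's strand. Capitals mark every match to any of these motifs, and the Hsd11b1 window held none.
Sgk1: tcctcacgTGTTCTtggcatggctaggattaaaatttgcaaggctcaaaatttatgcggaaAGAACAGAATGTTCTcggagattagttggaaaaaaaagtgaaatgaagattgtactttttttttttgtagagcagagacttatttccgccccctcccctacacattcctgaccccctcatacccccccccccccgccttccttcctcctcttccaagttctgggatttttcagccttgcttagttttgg
Dusp1: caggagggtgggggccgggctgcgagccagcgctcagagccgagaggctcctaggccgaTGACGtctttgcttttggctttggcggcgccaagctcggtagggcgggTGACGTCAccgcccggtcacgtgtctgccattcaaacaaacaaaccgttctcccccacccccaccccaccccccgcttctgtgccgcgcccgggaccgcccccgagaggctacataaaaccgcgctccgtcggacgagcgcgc
Hsd11b1: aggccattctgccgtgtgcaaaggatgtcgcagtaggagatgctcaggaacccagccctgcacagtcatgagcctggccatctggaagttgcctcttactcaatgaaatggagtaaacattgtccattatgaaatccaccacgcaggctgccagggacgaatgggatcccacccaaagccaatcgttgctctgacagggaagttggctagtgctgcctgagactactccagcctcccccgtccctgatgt
A match describes letters in a window and is not a measured binding site.

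The values below are log2 ratios of vesicle over cell RNA after loess, a normalization that sets each probe against probes of similar brightness on the same array. A value of 0 therefore means the usual ratio at that brightness. They stand beside net signals, the spot intensity less local background in scanner units. The channels differed widely. The median net signal of the 18117 tested probes was 545 and 208 in vesicle RNA (replicates 1 and 2) and 17.3 and 36.4 in cell RNA. The tested probes are a selected set: 17246 of them were above background in vesicle RNA on both arrays and 8790 in cell RNA. These medians therefore do not describe all genes. Spike control spots, in contrast, gave medians of 17304 and 5792 in the vesicle channel and 20529 and 46190 in the cell channel. Loess takes the difference of the tested probes out. Median centring, used as an alternative, leaves its trend with brightness in place, and there the median tested probe stood at 2.04 in place of 0.07. With the processed signals of the scanner software the median tested probe stood at 0.69. Ratios from these 2 settings are therefore to be read against their own medians. With 2 arrays, the precision of each value is limited by their number. A change was called at an adjusted p under 0.05 in limma (Benjamini-Hochberg over all tested probes). Of all tested probes, 1001 (5.53%) were called higher in vesicle RNA and 1971 (10.9%) lower, 16.4% in all. Each direction rests on the labels' account of which RNA carried which dye.

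Hsd11b1, the activating enzyme, was the gene of the 7 that differed between the RNAs in the test. Its net signal in vesicle RNA was 100414 in replicate 1 and 35294 in replicate 2, against 117 and 440 in cell RNA. The probe (A_51_P127297; chromosome 1, 192774594 to 192774653, minus strand, mouse build mm7) was well above background in both RNAs on both arrays. In bulk RNA of this kind, fewer cells of a type and less RNA per cell cannot be told apart. The vesicle signal was the higher one on both arrays, by 860 times in replicate 1 and 80.2 times in replicate 2. After loess the log2 ratios were 2.33 and 2.79, with a mean of 2.56 ± 0.32 (SD, n = 2), which is 5.90-fold (95% interval 4.33 to 8.02; limma adjusted p = 0.00741). Both arrays thus placed it far above probes of its brightness, and its mean ratio lay at percentile 99.99 of the tested probes. With median centring the ratio was 7.36, or 5.32 above the median of tested probes. With the processed signals of the scanner software it was 3.21, or 2.52 above the median of tested probes there. The call was lost when spots with an outlying local background were kept: the ratio was then 1.46 with an adjusted p of 0.547, and limma called no probe at all in that setting, with 677 probes at an unadjusted p under 0.05.

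**Figure D1:**
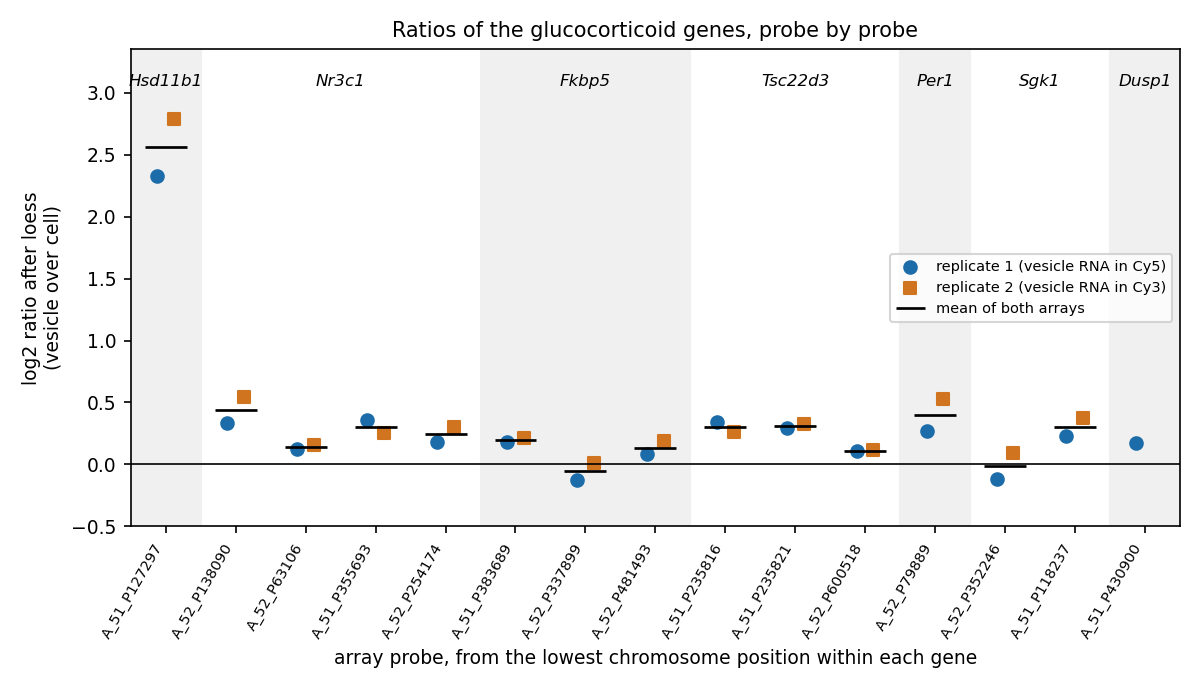
Log2 ratio of vesicle over cell RNA after loess for each of the 15 probes, with replicate 1 as circles, replicate 2 as squares and the mean of both arrays as a bar. Hsd11b1 stands at 2.33 and 2.79, and the means of the other tested probes lie between -0.06 and 0.44.

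Among 13185 other tested genes, the pattern of the 4 background-corrected log2 signals of Hsd11b1 was most like that of Col1a1, a fibrillar collagen chain gene (Euclidean distance 0.461 log2 units). Ccdc80, a secreted matrix protein gene, followed at 0.879 and Col3a1, another fibrillar collagen gene, at 1.16. Net signals of Col1a1 were 80060 and 32254 in vesicle RNA and 147 and 507 in cell RNA. This likeness is over 4 signals of 2 arrays and is a description.

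**Figure D2:**
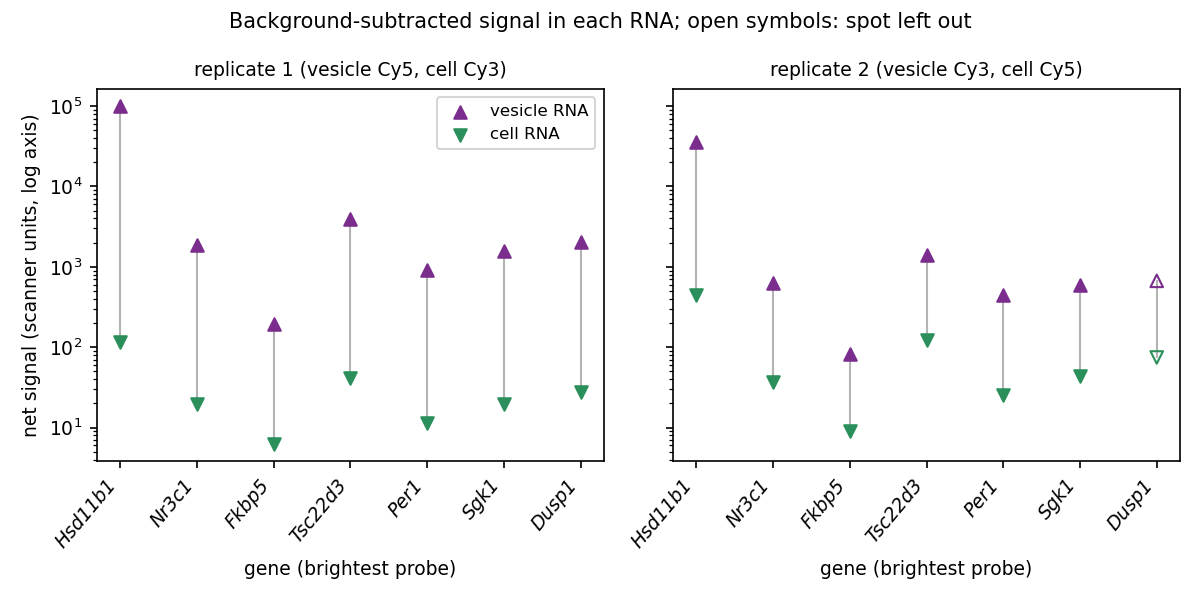
Net signal in scanner units, on a log axis, of the brightest probe of each gene in vesicle RNA (upward triangles) and cell RNA (downward triangles), 1 panel per replicate, with open symbols for a spot that was left out. The vesicle signal is above the cell signal for all 7 genes on both arrays, and Hsd11b1 has the longest line in each panel.

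H6pd, whose enzyme supplies the NADPH for that reaction, was also higher in vesicle RNA. Its log2 ratios were 1.14 and 1.57, with a mean of 1.35 ± 0.31 (SD, n = 2; limma adjusted p = 0.0214), and its other probe gave 0.65. Net signals were 5458 and 2273 in vesicle RNA and 20.8 and 58.3 in cell RNA. Like Hsd11b1 it was above the median of tested probes with median centring, at 4.98. Hsd11b2, whose enzyme inactivates the hormone, was not well above background on both arrays in either RNA. Of 15 listed genes of steroid handling, 14 were on the array and 7 could be tested. Hsd11b1 and H6pd made up the 2 higher genes, 1 was lower, and the other 4 missed the threshold, beside 6.38% higher and 13.1% lower among the 13186 genes tested, each by its brightest probe. The lower one was Cbr1, a carbonyl reductase gene, at -2.32 ± 0.21 (SD, n = 2; limma adjusted p = 0.00625). Centred on the median it stood at 2.39, slightly above the median of tested probes. The 5α-reductase gene Srd5a1 and its relative Srd5a3 did not pass, and neither was well above background in cell RNA on both arrays. The list's median was 0.22 and that of all tested genes 0.04.

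The receptor gene Nr3c1 was detected in vesicle RNA by each of its 4 probes, and none passed the test. The brightest probe (A_52_P138090; chromosome 18, 39787242 to 39787301, minus strand, mm7) gave 1846 and 623 in vesicle RNA and 19.5 and 37.1 in cell RNA, above background in both. Its ratios were 0.34 and 0.54, with a mean of 0.44 ± 0.15 (SD, n = 2), a 1.36-fold difference (95% interval 1.07 to 1.71; limma adjusted p = 0.0859). The interval of this probe excludes 1 before correction for the number of probes, and the adjusted p misses the threshold. It passed narrowly with scaling between arrays (0.43, adjusted p = 0.0480) and with a trended variance (adjusted p = 0.0499), and with the processed signals at a larger ratio (1.097, adjusted p = 0.0382). With the processed signals the median tested probe was itself at 0.69. Less the median of each setting, this probe was at 0.41 there and at 0.37 after loess.

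The other 3 Nr3c1 probes lay 2252, 3371 and 3564 bases further from the 3′ end of the gene. None was well above background in cell RNA on either array. For such probes a bound of the fold was taken against the higher of the probe's own cell signal and the lowest signal above background. Where the probe's own signal was the higher one, the bound is the loess fold itself and no limit that the true fold must exceed. Such a bound makes no allowance for the spread between arrays, and the 95% interval of each of these folds included 1. Probe A_52_P63106 gave 432 and 131 in vesicle RNA and 9.67 and 14.0 in cell RNA. Its bound was equal to its loess fold, 1.102 (95% interval of the fold 0.893 to 1.36, limma adjusted p = 0.403). For probe A_51_P355693 the bound was 1.20-fold, beside a loess fold of 1.235 (0.994 to 1.53, adjusted p = 0.146). The bound of A_52_P254174 was again equal to its loess fold, 1.18 (0.951 to 1.47, adjusted p = 0.212). With the processed signals all 3 passed (ratios of 2.85, 1.82 and 2.20, in the same order, and limma adjusted p of 0.0215, 0.0221 and 0.0187), and A_51_P355693 passed with an offset of 10 (0.93, adjusted p = 0.0472). Less the median of tested probes with the processed signals, the 3 ratios were 2.16, 1.13 and 1.51. The ratios of the 4 probes spanned 0.30 in log2, beside a median span of 0.29 over the 3850 genes with more than 1 tested probe. Nr3c2, the related mineralocorticoid receptor that also binds glucocorticoids, was not well above background on both arrays in either RNA.

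The chaperones and cofactors that work with the receptor lay near the usual ratio after loess. Their counts of calls, like those of all probes, depended on the scaling and are no evidence of a direction of the list. Of 25 listed genes 23 could be tested: limma called none higher and 4 lower (2 and 6 at an unadjusted p under 0.05), and 19 missed the threshold. Over all tested genes 6.38% were called higher and 13.1% lower. The list's median was 0.05. With median centring the list had 21 higher and 0 lower, and with the processed signals 4 higher and 3 lower. Over all 18117 tested probes, median centring gave 10773 higher and 265 lower, and the processed signals 5798 higher and 2574 lower. Hsp90aa1, an inducible heat shock protein 90 gene, stood at -1.61 ± 0.39 (SD, n = 2; limma adjusted p = 0.0201), while its partner form Hsp90ab1 was at -0.26 (adjusted p = 0.178). Dnajb1, an Hsp40 co-chaperone gene, was at -1.15 ± 0.14 (adjusted p = 0.0187). Also lower was Ppid, a cyclophilin of the same complexes, at -0.62 (adjusted p = 0.0398), named after its value was seen. Fkbp4, the immunophilin that replaces FKBP5 on the active receptor, was at 0.22 (adjusted p = 0.315). These values are relative to genes of the same brightness. In net signal Hsp90aa1 was 29492 and 10966 in vesicle RNA against 770 and 2538 in cell RNA, and with median centring these lower genes stood above the median of tested probes, Hsp90aa1 at 3.30, Dnajb1 at 3.42 and Ppid at 3.39. With plain background subtraction the list had 0 higher and 0 lower, and Hsp90aa1 and Dnajb1 missed the threshold (limma adjusted p of 0.0604 and 0.0693). Over all 17981 probes tested in that setting, 480 were higher and 1538 lower.

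Fkbp5 encodes the co-chaperone that lowers the receptor's affinity for hormone, and is a sensitive target of it. None of its 3 probes was well above background in cell RNA on either array. The brightest probe (A_51_P383689; chromosome 17, 26586393 to 26586452, minus strand, mm7) gave 197 and 81.3 in vesicle RNA and 6.26 and 8.98 in cell RNA. The loess ratios were 0.18 and 0.22, with a mean of 0.20 ± 0.03 (SD, n = 2). The bound of the fold was equal to the loess fold, 1.15, with a 95% interval of the fold from 0.928 to 1.42. That interval included 1, and the test was not passed (limma adjusted p = 0.272). A second probe 715 bases away gave -0.06 ± 0.10 (adjusted p = 0.744), with no fold to state. The third, 38117 bases away on the chromosome, had a bound of 1.09-fold (95% interval of the fold 0.885 to 1.37, limma adjusted p = 0.428). Detection on both arrays was thus seen in vesicle RNA alone, as for 13.1% of the 37976 probes with a value on both arrays. The Fkbp5 ratio depended on the processing. It was 3.28 with the processed signals (limma adjusted p = 0.0213), or 2.59 above the median of tested probes there, and 0.01 with spots of outlying local background kept. With median centring it was 1.28, a difference of -0.77 from the median of tested probes.

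Tsc22d3, the leucine zipper gene whose product blocks inflammatory transcription factors, was well above background in both RNAs by 2 of its 3 probes. Its brightest probe (A_51_P235816; chromosome X, 135258941 to 135259001, minus strand, mm7) gave 3925 and 1420 in vesicle RNA and 41.6 and 124 in cell RNA. The ratios were 0.34 and 0.26, with a mean of 0.30 ± 0.06 (SD, n = 2; limma adjusted p = 0.146). A probe 126 bases away gave nearly the same values, 3210 and 1283 against 36.3 and 105, with a mean of 0.31 ± 0.03 (adjusted p = 0.137). The third probe, 684 bases away, gave 941 and 355 against 15.8 and 35.3, with a mean of 0.11 ± 0.01 (adjusted p = 0.498). All 3 were above 0 on both arrays and none passed. Relative to the median of tested probes the brightest probe was at 0.23, and it turned to -0.19 with the processed signals.

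Per1, a clock gene that glucocorticoid induces acutely, had a single probe (A_52_P79889; chromosome 11, 69190950 to 69191009, plus strand, mm7). Net signals were 926 and 449 in vesicle RNA and 11.3 and 25.3 in cell RNA, the last of these alone being well above background in cells. The ratios were 0.27 and 0.53, with a mean of 0.40 ± 0.18 (SD, n = 2), 1.32-fold (95% interval 1.03 to 1.69; limma adjusted p = 0.113). Both arrays pointed the same way, and the test was not passed. With the processed signals the ratio was 1.73 (adjusted p = 0.0219). Less the median of tested probes it was 1.04 there and 0.33 after loess.

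Sgk1, a kinase gene that controls sodium transport and cell survival, carries the palindrome printed above at 1 of its annotated starts. Its tested probe (A_51_P118237; chromosome 10, 21732425 to 21732484, plus strand, mm7) gave 1557 and 590 in vesicle RNA and 19.5 and 43.3 in cell RNA. The ratios were 0.23 and 0.37, with a mean of 0.30 ± 0.10 (SD, n = 2), 1.23-fold (95% interval 0.987 to 1.54; limma adjusted p = 0.154). The other probe lies 100840 bases upstream and gave 3.22 and 5.59 against 8.44 and 0.65. It was not well above background in either RNA and was not tested. The signal of Sgk1 was thus seen by the probe nearer the 3′ end.

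Dusp1, the phosphatase gene that switches off MAP kinases, carries the cyclic AMP element printed above. Its probe (A_51_P430900; chromosome 17, 24690398 to 24690455, minus strand, mm7) gave 2054 in vesicle RNA and 27.5 in cell RNA of replicate 1, a loess ratio of 0.17. In replicate 2 the spot was left out because its local background carried the outlier flag, so Dusp1 has 1 value and no test. The net signals of that spot were 669 in vesicle RNA and 74.6 in cell RNA, both well above background. With such spots kept, the mean ratio was 0.04 (limma adjusted p = 0.547).

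Set side by side, the probes of the 7 genes were detected as follows. Of the 15 probes, 13 were tested. All 13 were above background in vesicle RNA on both arrays and 5 in cell RNA on both. Before the filter, 14 of the 15 had a value on both arrays, as did 37976 probes in all. Of those 37976, 45.4% were above background in vesicle RNA on both arrays and 23.1% in cell RNA. The filter selects for such signals: of all 18117 tested probes, 17246 were above background in vesicle RNA on both arrays and 8790 in cell RNA. The other 8 of the 13 passed the filter through vesicle RNA alone. The count of ratios above 0 is therefore a description and no evidence of a direction. Ratios were above 0 on both arrays for 12 of 13 probes (46.8% of all tested probes were), and the other probe changed sign between arrays (81% of all tested probes had the same sign on both). Of the 13, limma called 1 higher and 0 lower, and at an unadjusted p under 0.05 these numbers were 4 and 0. Over all 18117 tested probes, 5.53% were called higher and 10.9% lower, and 6484 had an unadjusted p under 0.05 in either direction. By gene, 1 of 6 was called higher, where the share over all tested genes was 6.38%. Without Hsd11b1 the means of the tested probes ran from -0.06 to 0.44. In the order of the brightest probes, Nr3c1 (0.44), Per1 (0.40), Sgk1 (0.30) and Tsc22d3 (0.30) had 95% intervals that overlapped one another, and that of Hsd11b1 (2.12 to 3.00) overlapped none of them after loess. Fkbp5 (0.20) was left out of that order because it was not well above background in cell RNA on either array. With the processed signals its ratio (3.28) was as large as that of Hsd11b1 (3.21).

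**Figure D3:**
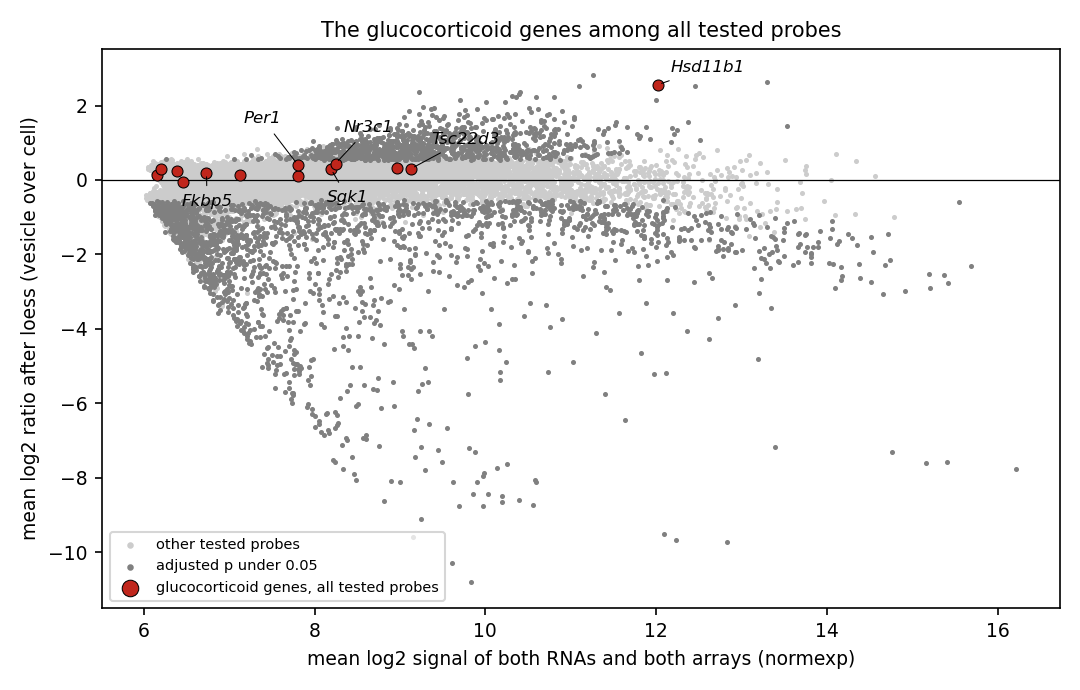
Mean log2 ratio of vesicle over cell RNA after loess against the mean log2 signal of both RNAs and arrays, for all 18117 tested probes, with the 13 tested glucocorticoid probes in red and other probes of adjusted p under 0.05 in dark grey. Hsd11b1, at 2.56, lies at the upper edge of the cloud, and the remaining red points lie within the band of probes around 0 that were not called.

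The count of these genes called higher depended on how the channels were balanced. It was 1 of 6 after loess, 4 with the processed signals (Hsd11b1, Nr3c1, Fkbp5 and Per1), and 5 with median centring (all but Fkbp5), where 59.5% of all tested probes were called higher. With the processed signals, 5798 of all 18117 tested probes were called higher, and after loess 1001. With median centring the variance was shared by all probes, so its p-values are not comparable with the others. Measured from each setting's own median, Hsd11b1 was above it by at least 1.45 in every setting drawn, and Fkbp5 and Tsc22d3 each fell below it in 1 of them.

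**Figure D4:**
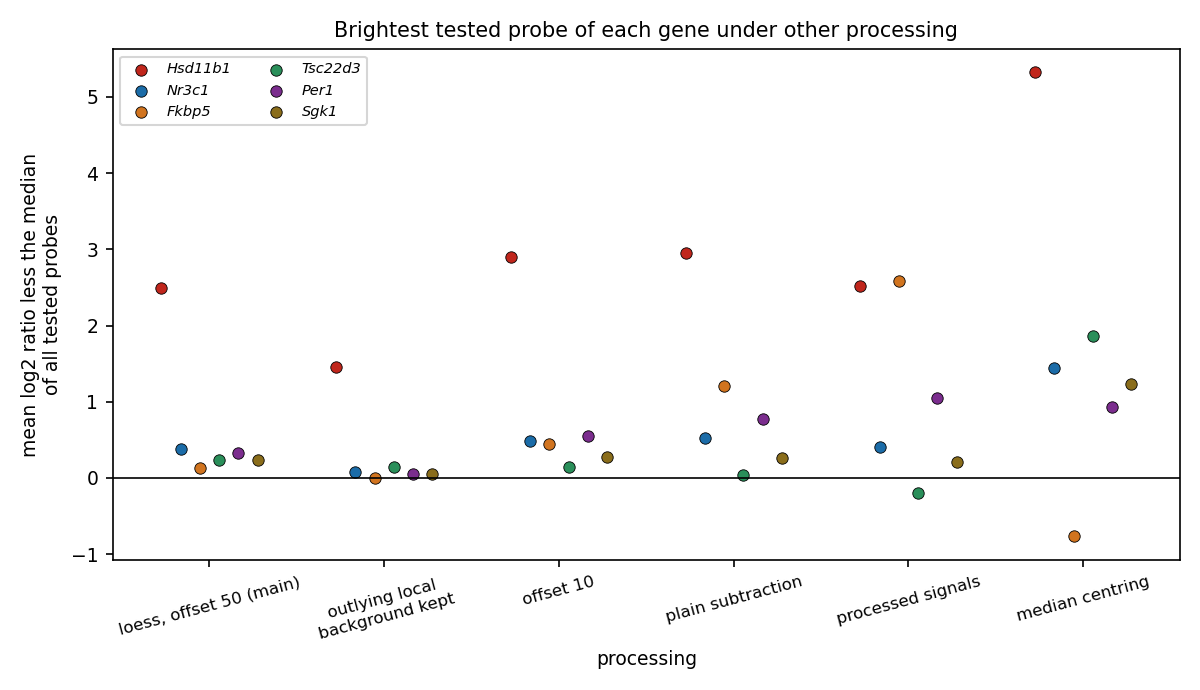
Mean log2 ratio of the brightest tested probe of each gene less the median of all tested probes, under 6 ways of processing the same arrays. Hsd11b1 (red) is above 0 throughout, from 1.45 to 5.32, while Fkbp5 (orange) runs from -0.77 with median centring to 2.59 with the processed signals.

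The wider set of genes that glucocorticoid is known to induce was split between the RNAs after loess. Of 45 listed genes, 34 could be tested: 6 were higher, 5 lower, and 23 missed the threshold. Their median was 0.08, beside 0.04 for all tested genes. The shares called over all tested genes were 6.38% higher and 13.1% lower. On the vesicle side were Acsl1, a fatty acyl-CoA synthetase gene, at 2.62 ± 0.41 (SD, n = 2; limma adjusted p = 0.00902) with 2.52 by its other probe, Rgs2, a G protein regulator gene, at 1.24 ± 0.03 (adjusted p = 0.0143), and the transcription factor gene Klf15 at 0.88 ± 0.03 (adjusted p = 0.0239). Other probes of Rgs2 and Klf15 gave 0.18 and -0.20, so these values belong to 1 probe each. On the cell side were Nfkbia, the inhibitor of NF-kappaB, at -2.87 ± 0.90 (limma adjusted p = 0.0226), the liver enzyme gene Tat at -1.91 ± 0.74 (adjusted p = 0.0306), and the metallothionein gene Mt1 at -1.55 ± 0.25 (adjusted p = 0.0148), whose other probe gave -0.19. Tat was dim, with 52.8 and 24.1 in vesicle RNA and 46.9 and 118 in cell RNA. With median centring Nfkbia and Tat stayed below the median of tested probes (1.73 and -0.82) and Mt1 stood above it (3.30). Pdk4, a classical target in fat and muscle, had -0.18 (limma adjusted p = 0.304). With plain background subtraction 1 gene of this list was called higher and 1 lower, with the processed signals 9 and 5, and with median centring 28 and 0. Over all tested probes the same settings called 480 higher and 1538 lower of 17981, 5798 and 2574 of 18117, and 10773 and 265 of 18117.

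Genes that glucocorticoid is known to repress were called on both sides. Of 17 listed, 9 could be tested, with 3 called higher, 3 called lower and 3 short of the threshold. Their median was -0.32, beside 0.04 for all tested genes. Of all tested genes 6.38% were called higher and 13.1% lower. The higher ones were the collagen genes Col1a1, at 2.14 ± 0.48 (SD, n = 2; limma adjusted p = 0.0159), and Col1a2, at 1.45 ± 0.19 (adjusted p = 0.0143), and the adhesion molecule gene Vcam1, at 0.75 ± 0.04 (adjusted p = 0.0295). Vcam1 was well above background in cell RNA on 1 of the 2 arrays. The lower ones were the chemokine genes Cxcl1, at -0.97 ± 0.36 (adjusted p = 0.0391), and Ccl2, at -0.92 ± 0.40 (adjusted p = 0.0464), and the matrix protease gene Mmp3, at -0.91 ± 0.36 (adjusted p = 0.0437). Other probes of Col1a1 ranged from 0.06 to 1.23, and the other probe of Vcam1 gave 0.25. With median centring Ccl2 (2.93) and Mmp3 (2.58) stood above the median of tested probes and Cxcl1 (1.46) below it. With plain background subtraction Vcam1, Ccl2 and Mmp3 lost their calls (limma adjusted p of 0.0651, 0.0718 and 0.0579), as did Ccl2 in a fit over genes (0.0504) and Col1a2 with a trended variance (0.0993). The cytokine genes Il1b and Tnf were not well above background on both arrays in either RNA.

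Relatives of the 7 genes mostly lay near the usual ratio. Of 25 listed, 22 were tested, and limma called 3 of them higher and 0 lower (5 and 2 at an unadjusted p under 0.05), with a median of 0.04. Over all tested genes 6.38% were called higher and 13.1% lower, with a median of 0.04. Of all 18117 tested probes, 6484 had an unadjusted p under 0.05 in either direction. Tsc22d1, a relative of Tsc22d3, was at 0.89 ± 0.13 (SD, n = 2; limma adjusted p = 0.0260), above Tsc22d3 at 0.30, but that difference was not tested. Fkbp9 and Fkbp2, immunophilins of the endoplasmic reticulum, were at 1.70 ± 0.25 (adjusted p = 0.0134) and 0.83 ± 0.27 (adjusted p = 0.0396), and the second Fkbp2 probe gave 0.82. The calls of Tsc22d1 and Fkbp2 were lost with plain background subtraction (adjusted p of 0.0726 and 0.0885), and that of Fkbp2 with the processed signals (0.0534). Among kinase and phosphatase relatives, Dusp6 (0.33), Dusp4 (-0.17), Sgk2 and Sgk3 did not pass, and the last 2 were not well above background in cell RNA on both arrays.

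**Figure D5:**
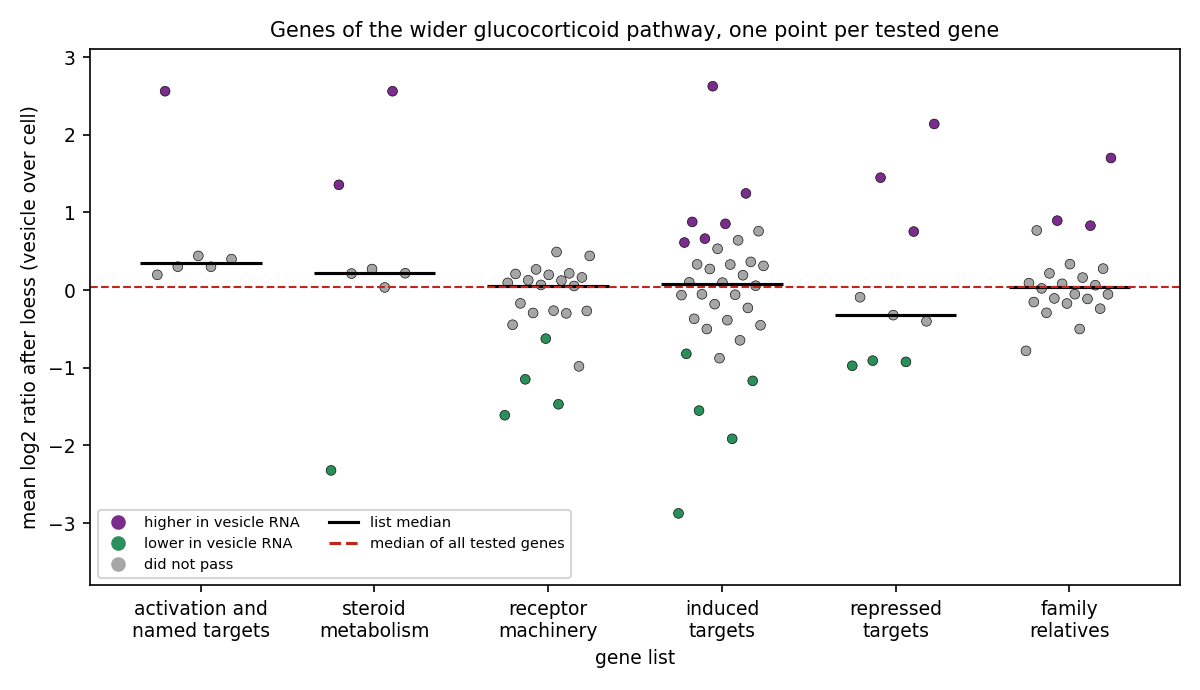
Mean log2 ratio of vesicle over cell RNA after loess for every tested gene of the named genes and of the 5 wider lists, each by its brightest probe, with list medians as black bars and the median of all tested genes (0.04) as a dashed line. Purple points were called higher in vesicle RNA and green ones lower. The receptor machinery has 4 green points and no purple one among 23, beside 13.1% lower and 6.38% higher over all tested genes.

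Markers checked the labelled cell type. All 10 adipocyte markers were well above background in both RNAs on both arrays, counting spots that were left out of the ratios. All 9 preadipocyte markers were so in vesicle RNA and 3 in cell RNA, and of 8 macrophage markers 4 and 3 were. None of 6 endothelial and none of 4 hepatocyte markers on the array was above background in either RNA, and 2 and 1 of 6 muscle markers were. Summed net signals of the macrophage list were 5498 and 2174 in vesicle RNA and 329 and 688 in cell RNA, and those of the preadipocyte list 64656 and 24537 against 466 and 1543, beside 3140690 and 1506820 against 14114 and 102020 for adipocyte markers. After loess, 6.38% of all tested genes were called higher and 13.1% lower, and 6484 of all 18117 tested probes had an unadjusted p under 0.05. The 9 preadipocyte markers then had a median ratio of 0.35, with 2 called higher (Pdgfrb at 1.59) and 6 higher at an unadjusted p under 0.05. The 7 tested adipocyte markers had a median of -0.28, with 3 called lower (Lpl at -2.75 and Plin1 at -1.33 among them) and 1 higher. With median centring these medians were 2.42 and 4.64, in the opposite order. The part of undifferentiated cells in the values of the glucocorticoid genes was not tested.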

How the data were processed

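RNA of 2 vesicle preparations and their donor cells was hybridised in pairs to 2 Agilent arrays with exchanged dyes. Feature Extraction 10.5.1.1 read the spots on an mm7 annotation, per the file headers, and the mean spot and median background intensity were deposited without normalization. Processed signals and the log10 ratio were background-subtracted and dye-normalized by that software, per the file headers. The deposited flags say whether a spot is above background, saturated or an outlier, and no probe was saturated. The series table deposited by the authors holds log10 ratios equal to the scanner's on array 1 and to their negative on array 2 (tolerance 0.001), with column medians of 0, so it points from cell to vesicle by the dye labels.

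Spots with an outlier flag on the feature or its local background were left out (2322 on array 1 and 1711 on array 2), background was corrected by normexp (offset 50), ratios were normalized by loess with controls at weight 0, and array 2 was turned. For 3198 probes a value was then missing on at least 1 array. Leaving out spots of outlying background follows an earlier analysis of these data that made this choice after seeing its results. A probe was tested where 50% or more of its spots carried the flag for well above background, in the same RNA on both arrays. The mean log2 ratio, computed from the deposited intensities, was tested against 0 with limma 3.58.1 in R 4.3.3 (1 residual and 2.91 prior degrees of freedom). Bounds for probes not above background used channel values after loess and Aquantile normalization.

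Probes were named through RefSeq accessions (22951 probes) or by the file's own name (18223). Coordinates are those of the files. Whether a probe lies in an exon, intron or UTR was not analysed here. The members and lists were chosen with earlier results of these data known. All 7 genes were named. From each wider list the rule named up to 3 called genes of highest and up to 3 of lowest ratio with the same sign on both arrays, and the 3 genes nearest to Hsd11b1; other genes were named after their values were seen, and 1 gene the rule named is not reported here. Alternatives varied the flags, background correction, normalization, filter, variance model and probe or gene level. Replicates are biological per the labels, with no word on separate cultures. The p-values and intervals rest on the spread between these 2 arrays, taken in large part from a variance pooled over all tested probes. They are not a measure of the spread of a single probe or of separate cultures. Both arrays lay on the same slide and in the same scan.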

Additional observations from a re-analysis of the deposited data

How the results depend on the processing

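The ratio within each array already pairs vesicle with cell RNA, so the test used is the paired one, with 1 residual degree of freedom. No further pairing could be added. After loess 1001 probes were higher, 1971 lower and 1 of the 7 genes higher. With spots of outlying local background kept, limma called 0 probes higher, 0 lower and 0 of the 7 genes (677 probes had an unadjusted p under 0.05, against 6484), and Hsd11b1 was at 1.46; the cause was not tested. With median centring there were 10773 higher and 265 lower (97.6% of calls higher, against 33.7%), 5 of the genes were called, and Nr3c1, Tsc22d3, Per1 and Sgk1 passed at 3.48, 3.90, 2.97 and 3.28. The processed signals gave 5798 higher (69.3% of calls) and 4 of the genes, with Nr3c1, Fkbp5 and Per1 passing at 1.097, 3.28 and 1.73. The median tested probe was itself at 2.04 with median centring and at 0.69 with the processed signals. The series table gave 3.21 for Hsd11b1, 1.097 for Nr3c1, 3.28 for Fkbp5, 0.50 for Tsc22d3, 1.73 for Per1 and 0.90 for Sgk1. An offset of 10 gave 1867 higher and 3063 lower, plain background subtraction 480 higher, scaling between arrays 1783 higher and a trended variance 1711 higher. In the last 2 settings 2 of the genes were called, since Nr3c1 passed at 0.43 and 0.44. Against 0, the brightest tested probe of each of the 6 genes kept its sign in every setting run, which the shift of all probes favours. Less the setting's median, Fkbp5 was at -0.77 with median centring and Tsc22d3 at -0.19 with the processed signals. The Fkbp5 probe at -0.06 (A_52_P337899) was at 0.52 with median centring and 0.37 with the processed signals. Less the medians of those settings it was at -1.52 and -0.32. Without replicate 1 or replicate 2 no test is left, and ratios ran from 0.18 (Fkbp5) to 2.79 (Hsd11b1). Probes at least 2-fold higher numbered 207 on array 1 alone (without replicate 2) and 469 on array 2 alone. Signal over background in the cell RNA is a limit, since 8 of 13 tested probes were not above it on both arrays.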
